A study of Oncorhynchus mykiss with 15 samples.

Results

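The deposited small RNA table of rainbow trout liver held 259 predicted miRNA candidates, which are all rows whose name starts with PC-, of 1213 rows in all. The candidates were chosen by that name alone and not by any measured value. The other rows carry the name of an entry in a miRNA collection: 313 rows have the prefix ssa for Atlantic salmon, a close relative of trout, and 641 have the prefix of another species. A prefix gives the entry matched and not the organism sampled.

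Livers of wild-type rainbow trout (Oncorhynchus mykiss) were frozen, extracted with Trizol and sequenced as small RNA on an Illumina HiSeq. The 15 libraries fall into 5 groups of 3: control fish, fish held under hypoxia for 3, 12 or 24 h, and fish after 3 h of reoxygenation. The labels do not say how long the reoxygenated fish had been hypoxic, how low the oxygen was or how many fish gave each library. They say only that replicates are separate samples, so the p-values below describe only how these samples vary.

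A miRNA is cut from a hairpin precursor by the enzymes Drosha and Dicer, which leaves a duplex of a 5p and a 3p strand. One strand is usually kept in an Argonaute protein, and its seed, the bases near its 5′ end, pairs with target mRNAs. Prediction from small RNA reads looks for stacks of reads that could come from such a hairpin, and a candidate found in this way has no assigned target or function. The number after the arm in a candidate's name is part of the deposited name, and the last number followed the candidate's summed value over the 15 libraries with a Spearman rho of 0.895 across the 259 candidates.

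The sequences below are given in the deposited table, written 5′ to 3′ as DNA, with the seed (bases 2 to 8) in capitals. The first 3 are the candidates that passed the test in at least 1 group comparison.
PC-3p-13989_144: gTGGTCTTatttgagcata
PC-3p-34703_37: tACAGACGcctgactgagcctc
PC-3p-13958_144: tAAGTGAAcccttgagacaatt
The next 3 are abundant candidates at 6 edits from any named row, where an edit is a base changed, added or left out. Of these, PC-5p-1571_2867 still shares its seed with a salmon-named row.
PC-3p-1454_3196: cAATGCGCcttccatgcaaca
PC-5p-1571_2867: tTTCTGACttgctaattggttgt
PC-3p-1369_3521: cTCTCTACttgtttgtggttct
The following lines set candidates beside the named row they resemble, since 40 of the 259 lay within 2 edits of one.
PC-3p-2038_2028: tGTGCAAAcccaagcaaaactgt
ssa-miR-19d-3p: tGTGCAAAcccaagcaaaactg
PC-3p-6415_403: aCCATCGAccgttaaatgtacca
ssa-miR-181a-1-3p: aCCATCGAccgttaaatgtacc
PC-5p-3792_831: cTAGCAGCacatcattactggta
oni-miR-457: tAGCAGCAcatcattactggta
PC-5p-8501_278: aATGAGGTagtagattgaatagtt
ssa-let-7e-5p: tGAGGTAGtagattgaatagtt
PC-5p-9722_233: tAGCCACTgactaacgtacatt
ssa-miR-210-5p: aGCCACTGactaacgtacattg
PC-5p-8751_267: tGGAGTGTgacatggtgttt
ssa-miR-122-5p_R-1: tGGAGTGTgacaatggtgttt
The last set holds candidates of opposite arms whose sequences pair with each other.
PC-5p-4031_762: tAGATCTGttcgtgccgtcttg
PC-5p-7409_332: tAGATCTGttcgtgccgtcttgt
PC-3p-1680_2620: aAGTCGGCacaaacagatctgt
PC-3p-7306_339: aGGTCGGCacaaacagatctg
PC-5p-19565_91: cTAATGCTgacatgctaggtgt
PC-3p-28943_50: cACCTAGCatgtcagcattagcc
PC-5p-2886_1211: tGATCCCTccggatgaccctgt
PC-3p-13555_150: cAGGTCGTcaggagggatcagc

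The candidates were low in level. Their median mean value over the 15 libraries was 6.13 on the deposited scale, against 207 for the salmon-named rows and 19.5 for the rows with another prefix. The lower and upper quartiles were 3.33 and 13.2, and the full range was 0.533 to 670. Only 13 had a mean of at least 100, and these included the 10 most abundant, which held 46.6% of the summed value of all candidates. The deposited values are normalized and rounded, so the reads behind each one cannot be recovered and no counting error is attached to them.

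Detection was uneven as well. A value above 0 in all 15 libraries was found for 34 candidates (13.1%), for 236 salmon-named rows (75.4%) and for 273 rows with another prefix (42.6%). The median candidate was above 0 in 9 libraries, the median salmon-named row in 15. No row of any class was above 0 in fewer than 3 libraries, and 55 candidates were seen in 3 to 5. A single library held a median of 23.6% of a candidate's summed value, at least 50% for 16 candidates and at most 69.2%. No candidate came from 1 library alone, which holds for every row of the table and is not a trait of the candidates.

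**Figure D1:**
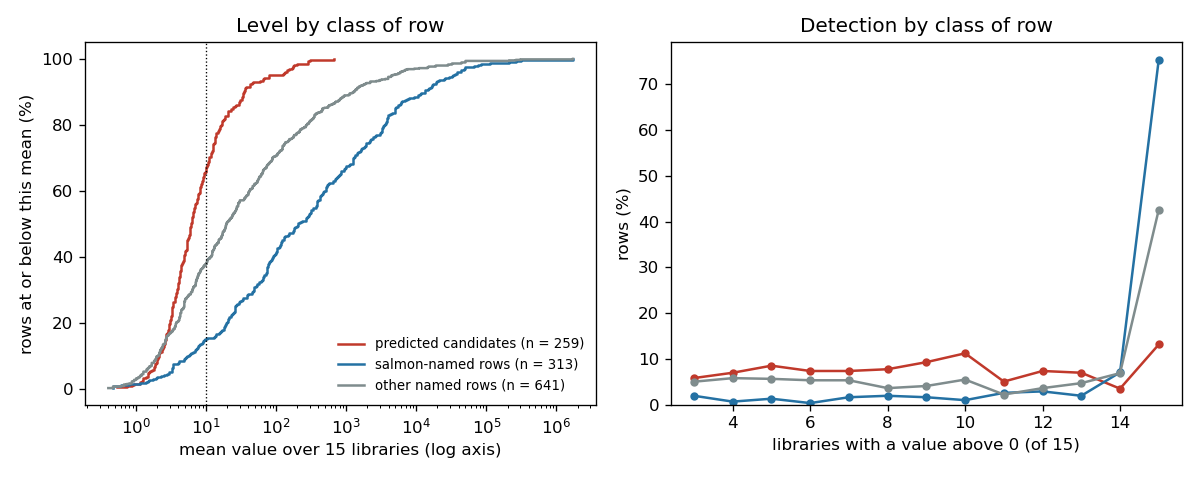
The left panel shows the share of rows (%) at or below each mean value over 15 libraries (log axis) for the 259 candidates, 313 salmon-named rows and 641 other named rows, with the filter at 10 dotted. The right panel shows the share of rows (%) by the number of libraries with a value above 0. Candidates lie to the left, with a median of 6.13, and 13.1% of them are above 0 in all 15 libraries.

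By length the candidates looked like the salmon-named rows: 229 (88.4%) were 21 to 23 bases long, against 92.7% of salmon-named rows and 66.1% of rows with another prefix. Their median length was 22 bases and their range 18 to 25. Median GC content was 45.5% for candidates and for salmon-named rows and higher for the other named rows. A T as first base, the base that many Argonaute-bound miRNAs begin with (as U in the RNA), was present in 117 candidates (45.2%), 43.8% of salmon-named rows and 42.7% of the others.

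The arms were nearly balanced, with 134 candidates named 3p (51.7%) and 125 named 5p. The 3p candidates had a median mean value of 6.57 and the 5p candidates 5.27, and 23 of the 3p and 11 of the 5p candidates were above 0 in all 15 libraries. First-base T was about as common on both arms of the candidates (44.8% of 3p and 45.6% of 5p). Among salmon-named rows it was found in 52.2% of 5p and 34.9% of 3p rows.

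The 10 most abundant candidates differed in how steady they were. PC-5p-1496_3099 had the highest mean, 670, and the widest swings: 2357, 3 and 216 in the controls, 1075, 405 and 816 after 3 h, 366, 803 and 632 after 12 h, 314, 2289 and 0 after 24 h, and 0, 0 and 774 upon reoxygenation. Libraries of the same group thus ranged from 0 or near 0 up to 2357 or 2289. PC-3p-1454_3196, with a mean of 300, read 172, 298 and 302 in the controls, 316, 258 and 221 after 3 h, 165, 161 and 168 after 12 h, 269, 430 and 263 after 24 h, and 773, 340 and 362 upon reoxygenation. The 12 h libraries were its 3 lowest and the reoxygenation library 1 its highest. PC-5p-1571_2867 (mean 281) ranged from 56 to 520, PC-3p-1369_3521 (mean 196) from 41 to 331, and PC-5p-2138_1889 (mean 151) from 39 to 382, each with its groups overlapping in part. The other members of the 10 were PC-5p-1631_2729, PC-3p-2251_1774, PC-5p-3792_831 and PC-3p-2042_2023, which resemble named miRNAs, and PC-3p-1680_2620, described with its pairing partners.

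Of the 259 candidates, 40 lay within 2 edits of a named row and the other 219 were at least 4 edits away, with none at 3. The limit of 2 was set after this gap had been seen. All 25 candidates at 0 edits held the whole sequence of a named row and were longer than it: 18 had the same 5′ end and ran on at the 3′ end, and 7 started upstream at the 5′ end. Reads from forms that differ in this way can be assigned to either row, so the levels of these 40 depend on how the submitters assigned them.

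**Figure D2:**
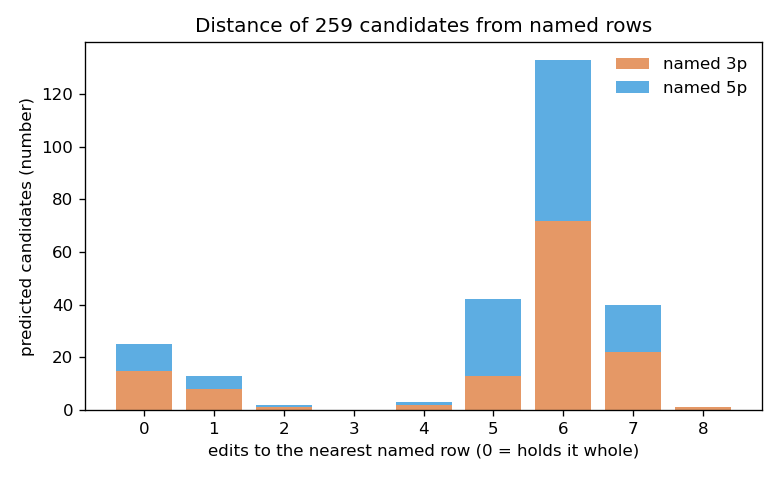
Bars give the number of candidates, split by the arm in their name, at each number of edits to the nearest named row, where 0 means that the candidate holds the named sequence whole. There are 25 candidates at 0, 13 at 1, 2 at 2 and none at 3, and 133 at 6.

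The 40 candidates close to a named row had the higher median level, though not the highest single means. Their median mean value was 13.4, against 5.53 for the other 219, and 13 (32.5%) were above 0 in all 15 libraries against 21 (9.59%). They held 28.2% of the summed candidate value and the other 219 held 71.8%. The highest mean was 280 among the 40 and 670 among the other 219. Relative to the single nearest named row, their level was a median of 3.74%, with 25 below 10% and 4 above 100%.

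Candidates with the same 5′ end keep the seed of the named miRNA. PC-3p-2038_2028 is ssa-miR-19d-3p with 1 further base at the 3′ end, and its mean of 129 was 3.97% of that row. PC-3p-6415_403, ssa-miR-181a-1-3p with 1 further base, had a mean of 26.1, or 1.09% of that row. miR-19 belongs to the miR-17-92 cluster, known for its role in cell proliferation, and miR-181 is best known from lymphocyte development.

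An extension at the 5′ end moves the seed. PC-5p-3792_831 begins 1 base before oni-miR-457, and its seed TAGCAGC differs from AGCAGCA of the named row. It had a mean of 174, which was 1.60% of that row, and it shared its seed with PC-5p-9677_234, which begins 1 base before oni-miR-15b. PC-5p-8501_278 begins 2 bases before ssa-let-7e-5p, a member of the let-7 family that is high in differentiated tissue, and had a mean of 35.5 (0.0542% of that row).

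A few candidates near abundant miRNAs were single-edit forms of them. PC-5p-8751_267 lay 1 edit from ssa-miR-122-5p_R-1, the hepatocyte miRNA that dominates these libraries, and kept its seed. It read 23, 11 and 14 in the controls, 11, 10 and 6 after 3 h, 41, 29 and 33 after 12 h, 71, 9 and 0 after 24 h, and 14, 0 and 10 upon reoxygenation, a mean of 18.8 or 0.00109% of the miR-122 row. All 12 h libraries were above all controls, while the other groups overlapped control. miR-122 rows made up 55.7% to 60.2% of the library total at 12 h and 24.7% to 33.6% in control. The share was 59.0% in 24 h library 1, where PC-5p-8751_267 reached 71. In reoxygenation libraries 1 and 3 it was 57.2% and 52.9%, where the candidate read 14 and 10. Whether the candidate's level follows that share was not tested. With limma and Benjamini-Hochberg adjustment over all tested rows, its 12 h difference was 1.10 ± 1.30 (SE) on the log2(value + 1) scale, with an adjusted p of 0.612.

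PC-5p-9722_233 lay 1 edit from ssa-miR-210-5p, the star strand of the miRNA best known for its induction by hypoxia in mammals. The candidate begins 1 base before that row and ends 1 base short of it, so its seed AGCCACT differs from GCCACTG of the named row. It read 6, 11 and 12 in the controls, 14, 5 and 15 after 3 h, 18, 17 and 32 after 12 h, 4, 10 and 3 after 24 h, and 23, 12 and 13 upon reoxygenation. The 12 h libraries were above the controls and the 24 h libraries overlapped them. In limma with Benjamini-Hochberg adjustment, the 12 h difference of PC-5p-9722_233 was 1.12 ± 0.74 (SE, log2 scale), with an adjusted p of 0.337.

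In 4 cases the candidate was above its nearest named row, which can be a scarce form of a more abundant miRNA. PC-3p-2042_2023, 1 edit from the zebrafish entry dre-miR-141-3p_1ss17CT, had a mean of 166 against 3.33 for that row. PC-5p-1631_2729, 1 edit from tni-mir-30d-p5_1ss23GT, had a mean of 280 against 16.5. PC-5p-6785_374 (mean 33.2) and PC-3p-11974_177 (mean 13.7) stood above dre-miR-7132-5p_R-2 (11.7) and dre-mir-457a-p3_1ss12TC (7.80). Other rows of the same miRNA names were above the candidates: dre-miR-7132-5p had a mean of 100.6 and ssa-miR-30d-5p_R-1 a mean of 3292. The miR-141 and miR-200 family marks epithelial cells, and miR-30 is abundant in many tissues.

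Seeds were mostly private to a candidate. The 259 candidates had 247 distinct seeds, and 9 seeds were shared by 21 candidates. A seed of a named row was found in 48 candidates (18.5%), 33 of them matching a salmon-named row. Of these 48, 35 were among the 40 candidates within 2 edits of a named row and 13 among the other 219. For comparison, 193 of the 300 distinct salmon-named sequences (64.3%) shared their seed with another named sequence. That other sequence can be a trimmed, substituted or other-species form of the same miRNA, so these shares are not like for like. The seed TGCTGGT was carried by 4 candidates, PC-5p-3254_1025, PC-5p-26640_57, PC-5p-30485_46 and PC-5p-39072_30.

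A strand and its partner on the opposite arm should pair, and some candidates did so. RNAduplex, which computes the most stable pairing of 2 RNA strands, gave an energy of −25 kcal/mol or lower for 22 of 16750 pairs of a 5p and a 3p candidate (0.131%). Among 16661 pairs from the same arm, which would not be partners, 1 reached it (0.006%). Arm names from a prediction that looks for hairpins would give such a contrast by themselves, so it is no separate support for the candidates. The limit was set after the energies had been seen, the next pair outside it was at −24.9, and the median of all 5p and 3p pairs was −7.3. These 22 pairs held 36 candidates, and several pairs share a candidate or a near copy of it, so they are not 22 separate hairpins. A duplex in these letters is a description: no genome was used, so whether both strands lie in 1 precursor was not tested.

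The most stable pair was PC-5p-19565_91 with PC-3p-28943_50, with 21 base pairs and an energy of −38.4 kcal/mol. Over these 21 bases the sequences are exact reverse complements, and whether the reads came from opposite DNA strands was not tested. PC-3p-28943_50 is the row ssa-miR-155-3p_1ss13AC with 1 further base at its 3′ end; miR-155 is a miRNA of activated immune cells. PC-5p-19565_91 read 0, 7 and 10 in the controls, 9, 9 and 0 after 3 h, 0, 0 and 12 after 12 h, 0, 0 and 0 after 24 h, and 22, 11 and 0 upon reoxygenation. PC-3p-28943_50 read 0, 0 and 3, then 15, 12 and 9, then 7, 0 and 8, then 0, 0 and 0, and then 22, 11 and 0 in the same order. Both were listed at 0 in all 24 h libraries and were highest in reoxygenation library 1.

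PC-5p-4031_762 and PC-5p-7409_332, which share a run of 22 bases, each paired with PC-3p-1680_2620 over 19 base pairs at −28.3 kcal/mol and with PC-3p-7306_339 at −27.4 kcal/mol. In mean level PC-3p-1680_2620 (144) was above both 5p candidates (42.5 and 22.3), while PC-3p-7306_339 (20.2) was below both. PC-3p-1680_2620 read 164, 103 and 95 in the controls, 110, 116 and 95 after 3 h, 137, 157 and 157 after 12 h, 154, 143 and 247 after 24 h, and 52, 236 and 195 upon reoxygenation. Every other group overlapped control, while all 3 h libraries lay below all 12 h and 24 h libraries. The lowest value of PC-3p-1680_2620 was in reoxygenation library 1. PC-5p-4031_762 read 0, 68 and 47 in the controls, 108, 25 and 52 after 3 h, 18, 20 and 17 after 12 h, 17, 113 and 29 after 24 h, and 9, 55 and 59 upon reoxygenation.

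Which arm was higher varied from pair to pair: the 5p candidate had the higher mean in 9 pairs and the 3p candidate in 13. PC-5p-2886_1211 (mean 66.2) was 6.21 times the level of PC-3p-13555_150 (10.7), with which it formed 17 base pairs at −32.2 kcal/mol. The reverse held for PC-3p-3375_979 (mean 123) and PC-5p-12831_162 (4.20), which paired at −30.2 kcal/mol. PC-3p-13555_150 was above 0 in every control and 3 h library and listed at 0 in all 12 h libraries, while PC-5p-2886_1211 read 70, 78 and 3 at 12 h and 11, 121 and 118 in control.

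**Figure D3:**
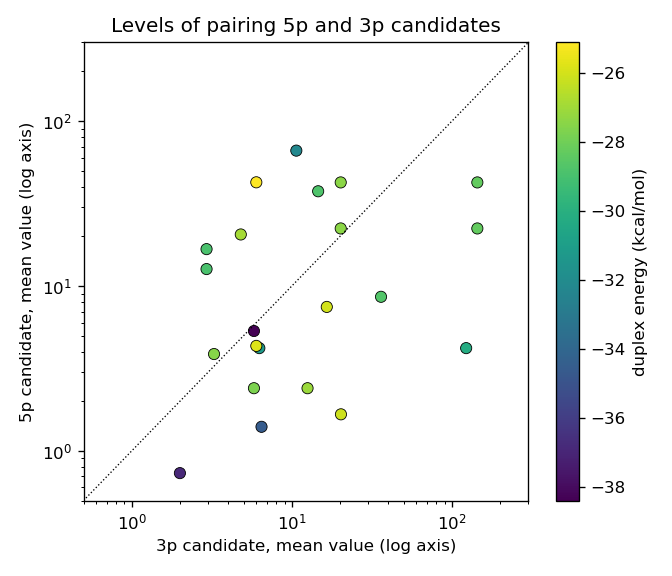
Each point is 1 of the 22 pairs of a 5p and a 3p candidate with a duplex energy of −25 kcal/mol or lower, placed by the mean value of each arm over 15 libraries (log axes) and coloured by energy. Points above the dotted line of equal level (9) have the higher 5p arm and points below it (13) the higher 3p arm.

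Candidates were also paired with salmon-named rows. Of 38895 pairs on opposite arms 14 reached the same energy (0.036%), against 1 of 38805 pairs on the same arm, with the same limit from the arm names. Most of these 14 involve candidates that resemble a named miRNA of that family, such as PC-3p-2251_1774 with ssa-let-7b-5p and PC-3p-3422_960 with ssa-miR-2188-5p. Besides PC-5p-19565_91, the candidate PC-3p-33275_40 paired with ssa-miR-128-3-5p at −28.7 kcal/mol while lying 5 edits from any named row. Its sequence is mostly G and C, and it also paired with PC-5p-15872_121 at −26.9 kcal/mol. Whether it is a partner of either was not tested.

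Before the groups are compared, 3 facts of the whole table bear on them. Library totals over distinct sets of values ran from 2090585 to 6181106, and miR-122 rows held from 21.5% to 35.7% of it in control and 3 h libraries, 55.7% to 60.2% at 12 h and 25.2% to 59.0% in the last 2 groups, which fits the liver label. Library 1 was the farthest from its partners in all 5 groups, most clearly in reoxygenation, 24 h and control. Over all tested rows, the SD of log2 differences was 2.87 and 2.91 for reoxygenation library 1 against its partners and 1.42 between those partners. For library 1 at 24 h it was 2.15 and 2.05 against 1.33, and in control 1.83 and 1.72 against 1.06. At 12 h it was 1.36 and 1.39 against 1.01, and at 3 h 1.38 and 1.36 against 1.15. What sets library 1 apart was not tested. Muscle miRNAs (miR-1, miR-133, miR-206) stayed at or below 0.0082% of any library total. In bulk liver, fewer cells of a type and less RNA per cell cannot be told apart.

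As a share of the library total the candidates were low in every library. They made up 0.176%, 0.213% and 0.243% in control, 0.258%, 0.225% and 0.265% at 3 h, and 0.0828%, 0.0915% and 0.0802% at 12 h. The 24 h libraries were spread, at 0.0722%, 0.250% and 0.186%, as were those of reoxygenation, at 0.0843%, 0.177% and 0.117%. All 12 h libraries lay below all control and 3 h libraries, and the lowest of all was 24 h library 1. The summed candidate value ran from 5084 to 7720 in control and from 4622 to 5274 at 12 h, so that the groups overlapped. Without the most abundant and widely swinging candidate, PC-5p-1496_3099, it ran from 4868 to 5363 in control and from 3990 to 4471 at 12 h, with all 12 h libraries below all controls. The miR-122 share, given above, was highest in the libraries with the lowest candidate share, and its part in the share was not tested.

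The number of candidates above 0 in all 3 libraries of a group was 106 for control, 98 for 3 h, 90 for 12 h, 76 for 24 h and 76 for reoxygenation. In every group library 1 had the fewest candidates above 0. The numbers for libraries 1, 2 and 3 were 147, 195 and 193 in control and 137, 188 and 166 at 3 h. They were 135, 175 and 154 at 12 h, 133, 180 and 137 at 24 h, and 136, 155 and 150 after reoxygenation. At 12 h, 5 candidates were above 0 in every library while listed at 0 in every control, a pattern that 0.989% of all rows in the table showed. The reverse, above 0 in every control and at 0 in every 12 h library, was seen for 8 candidates and 3.22% of all rows. At 3 h the counts were 1 and 2 (0.247% and 0.33% of all rows), at 24 h 3 and 2 (0.412% and 1.07%), and after reoxygenation 3 and 8 (0.577% and 1.32%). PC-3p-13989_144 was the 1 candidate among those gained at 12 h, at 24 h and after reoxygenation. A value of 0 here means listed at 0 in rounded data and not absence. The 1213 rows held 1019 distinct sets of values, so the shares of all rows count some sets more than once.

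For tests, 87 of the 259 candidates (33.6%) averaged 10 or more across the libraries, against 266 of 313 salmon-named rows and 399 of 641 others. The nearest means on either side of this filter were 9.87 and 10. The 87 are the abundant end of the candidates and do not stand for the 172 below it. A candidate that is high in some groups and near 0 in others enters the test through the groups where it is high, so the counts below describe the rows that entered. limma was fitted to log2(value + 1) over all 752 rows that passed the filter, with Benjamini-Hochberg adjustment over all of them. These 752 rows held 622 distinct sets of values, and with 1 row kept per set all 87 candidates remained. Shares of all tested rows and counts of named rows below therefore count some sets of values more than once. A candidate's difference had a median standard error of 1.09 on the log2 scale, against 0.69 over all tested rows.

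After 3 h of hypoxia no candidate passed the threshold of adjusted p 0.05 in limma, where 0.0% of all tested rows did. An unadjusted p under 0.05 was found for 4 of the 87 (4.6%) and for 1.73% of all tested rows. The 3 smallest p belonged to PC-3p-11974_177 (log2 difference −2.50 ± 0.996, SE), PC-5p-2138_1889 (−1.67 ± 0.68) and PC-3p-3375_979 (−1.22 ± 0.51), with an adjusted p of 0.995 each by limma with Benjamini-Hochberg. PC-3p-3375_979 read 291, 151 and 101 in control and 106, 70 and 46 at 3 h, so that 1 library of 3 h lay within the control range. The groups did not overlap for 4 candidates, against 5.85% of all tested rows. The median log2 difference was −0.24 for candidates and −0.01 for all tested rows.

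The 12 h comparison gave the most calls. Of the 87 tested candidates 3 passed, where 7.18% of all tested rows did: 2 were higher (5.19% of all tested rows) and 1 was lower (1.99%). An unadjusted p under 0.05 was found for 21 candidates (24.1%) and for 26.7% of all tested rows. Salmon-named rows were called 28 times in 266 and rows with another prefix 23 times in 399. The groups did not overlap for 27 candidates (31.0%), against 40.7% of all tested rows; 12 were higher and 15 lower, against 16.9% and 23.8% of all tested rows. The candidates' median log2 difference was −0.11 and that of all tested rows −0.20 on the deposited scale. It became −1.02 and −1.19 with values scaled to the library total, and turned to 0.45 and 0.03 under quantile normalization and to 0.33 and 0.04 under a correction for GC content, so the candidates' direction as a whole depends on the scale. Markers of other liver cells, as summed deposited values, were mixed at 12 h: endothelial miR-126 was at 41161 to 49088 against 5052 to 18228 in control, epithelial miRNAs (miR-200, miR-429) were at 5221 to 6112 against 8197 to 10470, and stromal miRNAs (miR-143, miR-145, miR-199) overlapped at 99710 to 118954 against 88731 to 136020. The epithelial sum was nearly all miR-200, while miR-429 alone overlapped, at 42 to 63 against 37 to 132 in control. Red blood cell miRNAs (miR-451, miR-144, miR-486) overlapped at 5145 to 7436 against 3010 to 8008. Of these, miR-486 was listed at 0 in all 12 h libraries, against 145 to 285 in control, while miR-451 and miR-144 overlapped. White blood cell miRNAs (miR-223, miR-142, miR-155) overlapped at 1349 to 2411 against 604 to 2306. As a share of the library total, the stromal sum did not overlap, at 1.74% to 2.06% against 2.86% to 5.46%. Within it, miR-145 alone overlapped, at 0.0449% to 0.0616% against 0.0532% to 0.129%. The part of these markers in the candidates' differences was not tested.

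PC-3p-13958_144 was listed at 0 in all controls, read 7, 0 and 0 at 3 h, and rose to 23, 27 and 60 at 12 h. It then read 44, 4 and 14 at 24 h and 0, 5 and 19 after reoxygenation. All 12 h libraries were above all control and 3 h libraries, and the later libraries were spread between 0 and 44. The 12 h difference passed in limma with a Benjamini-Hochberg adjusted p of 0.0296. Its mean of 13.5 cleared the filter of 10 only through the groups from 12 h on, where it is high. With no filter on the mean, so that all 1213 rows entered, the adjusted p by limma was 0.0264. The 5-group test did not pass, with an adjusted p of 0.0750 by limma, and at 24 h and after reoxygenation no call was made.

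PC-3p-13989_144, a candidate of 19 bases, was listed at 0 in all 6 libraries of control and 3 h. It read 13, 5 and 9 at 12 h, 16, 23 and 19 at 24 h, and 22, 25 and 21 after reoxygenation. Every library of the last 3 groups was above every library of the first 2, and within each group the 3 values lay close together. By limma with Benjamini-Hochberg adjustment it passed at 12 h (adjusted p = 0.0356), at 24 h (0.0262) and after reoxygenation (0.0104), as well as in the 5-group test (0.00440). Its mean of 10.2 lay just above the filter of 10 and reached it only through the 9 libraries where it is high. With no filter on the mean the adjusted p by limma was 0.0264, 0.00860, 0.00480 and 0.00192 in the same order. The comparisons share the control libraries, so its 3 calls are not independent.

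PC-3p-34703_37 had the opposite course. It read 32, 35 and 22 in control and 28, 24 and 25 at 3 h, then 0, 0 and 5 at 12 h, 6, 0 and 6 at 24 h, and 0, 5 and 0 after reoxygenation. All 6 early libraries were at 22 or above and all 9 later ones at 6 or below. At 12 h it fell by 4.05 on the log2 scale (SE 1.12, n = 3 per group), with an adjusted p of 0.0402 by limma with Benjamini-Hochberg, and passed narrowly in the 5-group test (adjusted p = 0.0496). Its mean of 12.5 cleared the filter of 10 only through control and 3 h, where it is high. With no filter on the mean the adjusted p by limma was 0.0427 at 12 h and 0.0495 over the 5 groups. After reoxygenation the difference was also −4.05 ± 1.12 but the adjusted p by limma was 0.0745.

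**Figure D4:**
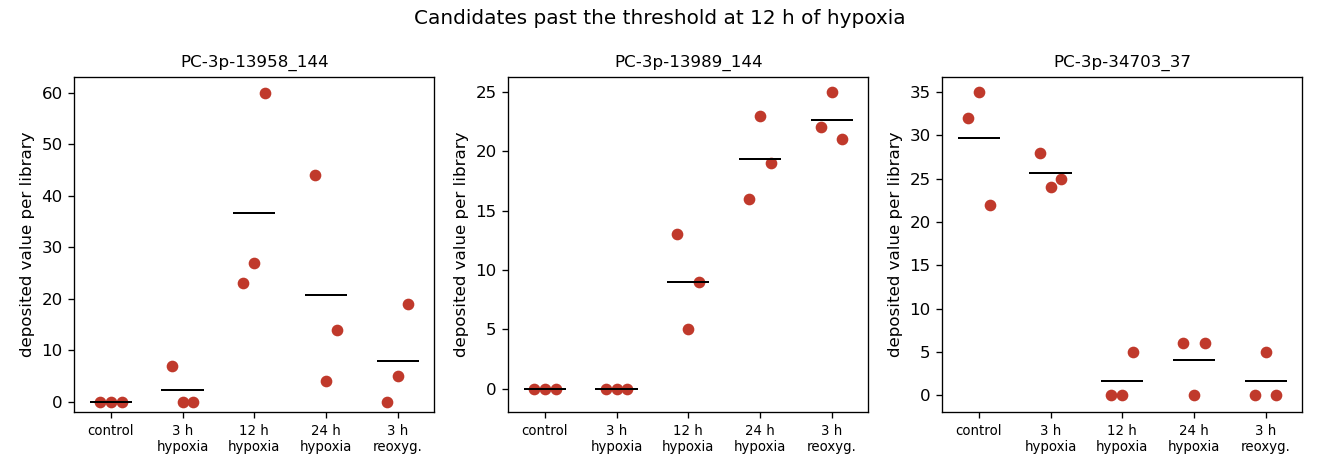
Deposited value in each of the 15 libraries (points) with group means (lines) for the 3 candidates past the threshold at 12 h. PC-3p-13989_144 is at 0 in control and 3 h and between 5 and 25 in the later groups, PC-3p-34703_37 is at 22 or above and then at 6 or below, and PC-3p-13958_144 peaks at 12 h.

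This division of the 6 early from the 9 later libraries was looked for in all candidates after those values had been seen, and carries no test. PC-3p-13989_144 was the 1 candidate whose 9 later libraries were all higher, a pattern of 1.86% of all tested rows. PC-3p-34703_37 was the 1 candidate whose later libraries were all lower, as in 2.66% of all tested rows.

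**Figure D5:**
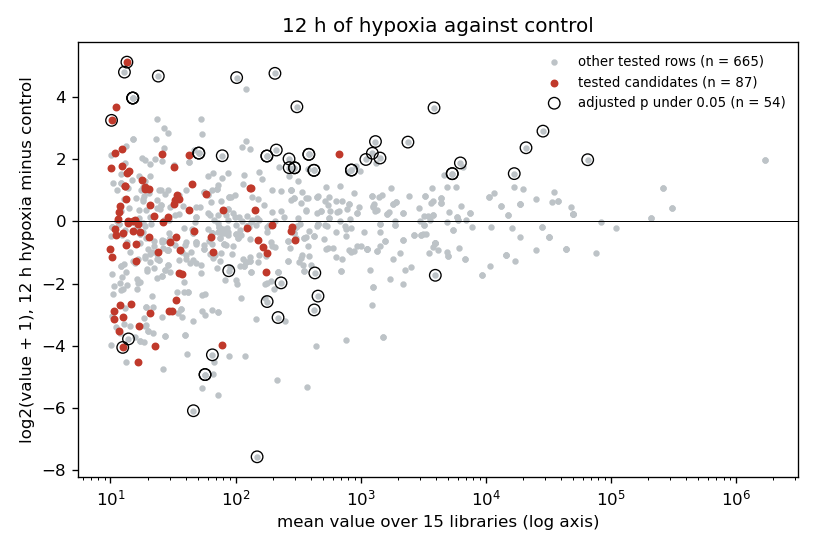
Difference between 12 h hypoxia and control in log2(value + 1) against the mean value over 15 libraries (log axis) for 752 tested rows, with the 87 candidates in red and rows at an adjusted p under 0.05 circled. Candidates sit at the low end of the level axis, their own differences run from −4.51 to 5.11, and 3 of them are among the 54 circled.

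The 12 h calls rest on few libraries. No candidate passed without control library 2, control library 3, 12 h library 1 or 12 h library 2, whereas 6 passed without control library 1, 5 without 24 h library 1 and 6 without reoxygenation library 1. With both 24 h library 1 and reoxygenation library 1 left out the count was 12 of 87 (13.8%), of which 3 were higher and 9 lower, while 21.5% of all tested rows were called in that fit. The shares of all tested rows moved as well with single libraries left out: 0.532%, 3.72%, 1.2% and 2.39% were called in the first 4 of these fits, and 14.5%, 9.97% and 14.1% in the other 3. Over the other settings tried at 12 h, PC-3p-13989_144 passed in 16 of 26, PC-3p-13958_144 in 19 and PC-3p-34703_37 in 15, and none changed direction.

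Several candidates that resemble a named miRNA can be set beside it at 12 h. PC-3p-6415_403 read 18, 13 and 5 in control against 44, 58 and 51 at 12 h, without overlap, and differed by 2.14 ± 0.94 (SE, log2 scale) with an adjusted p of 0.159 by limma with Benjamini-Hochberg. ssa-miR-181a-1-3p, whose whole sequence it holds, differed by 2.54 ± 0.39 with an adjusted p of 0.00387 in the same limma fit. For PC-3p-2251_1774 the difference was −1.02 ± 0.46 (adjusted p = 0.17 by limma), and for ssa-let-7h-3p_1ss4TG −1.74 ± 0.41 (adjusted p = 0.0228 by limma). In both cases the named row passed and the candidate did not. The same held for ssa-let-7e-5p (1.97 ± 0.54, adjusted p = 0.0402 by limma) and PC-5p-8501_278 (0.72 ± 1.38, adjusted p = 0.791 by limma). At 24 h (0.997 and −1.89) and after reoxygenation (1.28 and −3.57) these 2 rows differed from control in opposite directions, and neither passed. At 12 h PC-5p-6785_374 differed by −2.52 ± 1.17 and dre-miR-7132-5p_R-2 by −0.08 ± 0.84, and neither passed. The difference between the 2 forms was not tested for any pair.

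PC-5p-3792_831 showed how wide the spread within a group could be. It read 9, 377 and 290 in the controls, 383, 351 and 511 after 3 h, 25, 29 and 46 after 12 h, 27, 161 and 88 after 24 h, and 82, 186 and 49 upon reoxygenation. The 12 h values were far below control libraries 2 and 3 and above control library 1, which stood apart in the table as a whole. Its 12 h difference was −1.64 ± 1.07 (SE, log2 scale) with an adjusted p of 0.337 by limma with Benjamini-Hochberg. The named row oni-miR-457 had a like spread, at 2409, 20933 and 18632 in control and 3184, 3404 and 4342 at 12 h. Its 12 h difference was −1.44 ± 0.72 (SE, log2 scale).

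At 24 h, 1 of the 87 candidates passed, PC-3p-13989_144, where 0.665% of all tested rows did. An unadjusted p under 0.05 was found for 8 candidates (9.2%), against 13.3% of all tested rows. The groups did not overlap for 12 candidates, against 15.7% of all tested rows. Next in order were PC-3p-20227_87, PC-5p-7678_316 and PC-3p-6856_369, each with an adjusted p of 0.162 by limma with Benjamini-Hochberg. PC-5p-7678_316 read 24, 3 and 13 in the controls, 11, 9 and 6 after 3 h, 36, 55 and 25 after 12 h, 66, 39 and 61 after 24 h, and 38, 20 and 74 upon reoxygenation. Its 12 h and 24 h libraries were all above the controls, and its log2 difference at 24 h was 2.30 ± 0.73 (SE). PC-3p-6856_369, 1 edit from ssa-miR-26b-3p, read 66, 26 and 40 in control against 10, 8 and 10 at 24 h, and differed by −2.03 ± 0.65 (SE) on the log2 scale. The single call was lost without control library 2 or 3, 12 h library 1 or 3, or 24 h library 2 or 3, and 2 candidates passed without control library 1 or reoxygenation library 1.

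After 3 h of reoxygenation, 1 candidate passed against control, again PC-3p-13989_144, where 2.13% of all tested rows did. At an unadjusted p under 0.05 there were 14 candidates (16.1%), against 16% of all tested rows. The groups did not overlap for 12 candidates against 16.2% of all tested rows, with 3 higher and 9 lower against 7.18% and 9.04%. PC-5p-18989_95 read 62, 17 and 45 in control and 0, 7 and 0 after reoxygenation, a log2 difference of −4.22 ± 1.47 (SE) with an adjusted p of 0.193 by limma with Benjamini-Hochberg. PC-3p-17302_108 read 35, 25 and 20 in control and was listed at 0 in all reoxygenation libraries, with an adjusted p of 0.21 by limma. Without reoxygenation library 1, the library farthest from its partners, 4 candidates passed, without library 2 there were 2, and without library 3 none.

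Against 24 h of hypoxia no candidate changed after reoxygenation past the threshold in limma, where 0.0% of all tested rows did. At an unadjusted p under 0.05 there were 4 candidates (4.6%), against 3.72% of all tested rows. Groups did not overlap for 7 candidates (8.05%), against 5.05% of all tested rows. PC-5p-10831_202 was listed at 0 in all 24 h libraries and read 13, 56 and 40 after reoxygenation, with control at 29, 29 and 0 (adjusted p = 0.824 by limma with Benjamini-Hochberg). PC-5p-15872_121 read 21, 126 and 10 at 24 h and 6, 6 and 0 after reoxygenation, and PC-3p-12147_174 read 0, 4 and 0 and then 11, 6 and 10, each with an adjusted p of 0.962 by limma.

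Over all 5 groups, 2 of 87 candidates passed the moderated F-test of limma, PC-3p-13989_144 and PC-3p-34703_37, where 6.38% of all tested rows did. At an unadjusted p under 0.05 there were 21 candidates (24.1%), against 27.7% of all tested rows. PC-5p-15872_121 followed with a Benjamini-Hochberg adjusted p of 0.0715 by limma: it was listed at 0 in all 12 h libraries and read 0, 21 and 20 in control and 39, 20 and 39 at 3 h. The number of candidates passing was 7 without reoxygenation library 1, 5 without control library 1 and 4 without 24 h library 1. It was 1 without control library 2 or 3, 3 h library 2 or 3, any 1 library of 12 h, 24 h library 3 or reoxygenation library 3. Under the 25 other settings tried, PC-3p-13989_144 passed the 5-group test in 25 and PC-3p-34703_37 in 10, with adjusted p up to 0.137 by limma for the latter.

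The authors' deposited table gives its own p-value for each row, from a test it does not name. In the authors' deposited table, a total of 34 candidates (13.1%) had a p under 0.05, against 27.5% of salmon-named rows, 17.2% of rows with another prefix and 19.0% of all rows.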

How the data were processed

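Small RNA was sequenced from 15 rainbow trout liver libraries, grouped by the sample labels. The table deposited by the authors gives 1 value per row and library, treated here as a score: a normalized value rounded to whole numbers. Its deposited name labels the values TPM, a unit scaled to the same total in every library. Library totals over distinct sets of values ran from 2090585 to 6181106, so the values do not keep to that unit. Their scale could not be settled from the sources used here. The table also holds the authors' deposited p-value per row. No aligner, miRNA annotation, prediction tool or genome build is stated in those sources. No genome was used, so candidates have no position.

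The 752 rows averaging 10 or more over 15 libraries were fitted as log2(value + 1), which makes changes of low rows look smaller, with limma 3.58.1 in R 4.3.3: trended variance, 5 groups in 1 fit, no covariate, Benjamini-Hochberg adjustment within each comparison over all tested rows, threshold 0.05. The fit was tested on simulated data. Edits to named rows are the smallest number with which the shorter sequence fits inside the longer. Duplex energies came from RNAduplex 2.7.2. Levels and sequence relations are descriptions without a test. Depth per library is unknown.

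Named candidates were the 10 with the highest mean, those past the threshold, the 3 smallest p where fewer than 3 passed, the 5 smallest p over the 5 groups, up to 10 sharing a seed with a salmon-named row, and those sharing at least 16 bases with another row. Others were chosen after their values were seen. Members, lists and tests were chosen with earlier results of these data known. Other pseudocounts, filters, scalings, 1 row per distinct set of values, a GC correction (lowess, span 0.5), a block for the replicate number, fits to only the compared groups and each library left out were tried.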

Additional observations from a re-analysis of the deposited data

How the results depend on the processing

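Counts of candidates past the threshold were small, so that 1 candidate more or less moves them. Leaving out 1 library at a time gave 0 to 6 candidates at 12 h (3 with all libraries), 0 to 2 at 24 h (1), 0 to 4 after reoxygenation (1) and 1 to 7 over the 5 groups (2), and 0 in the other 2 comparisons. A filter at a mean of 50 left 18 candidates and called 0 in every comparison. The 3 candidates called with all libraries have means of 10.2, 12.5 and 13.5, so this filter removed them before testing. At 12 h the count was 0 after scaling to the library total without miR-122 and after the GC correction, and 8 with only the compared groups in the fit. At 24 h it was 0 after scaling to the library total and 0 with only the compared groups. After reoxygenation it was 2 with a pseudocount of 5 and 0 with only the compared groups. Over the 5 groups it was 1 with a pseudocount of 0.5, 1 with 1 row per distinct set of values and 1 with the GC correction. Without 24 h library 1 and reoxygenation library 1 together the counts were 12 at 12 h, 6 after reoxygenation and 12 over the 5 groups (13.8%, 6.9% and 13.8% of the 87), where 21.5%, 10.1% and 24.3% of all tested rows were called. Why these settings move the counts was not tested. Of the 180 values under other settings for the 7 single-candidate tests that passed, 53 were no longer past the threshold; of the 389 for the 15 that had not passed, 10 were newly past it. Among the values for log2 differences the sign changed in 0, and the 5-group tests have no sign.

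The labels do not say whether replicate numbers pair the samples. Deviations of the 30 same-numbered pairs of libraries correlated between −0.29 and 0.53 (median 0.02), with 11 over 0.1. The 60 differently numbered pairs correlated between −0.55 and 0.44 (median −0.004), with 16 over 0.1. Such correlations cannot decide whether the samples are paired. Library 1 was the farthest from its partners in every group, and what the replicate number stands for is not stated. With the replicate block, 3 candidates passed at 12 h, 1 at 24 h, 1 after reoxygenation and 1 over the 5 groups, where PC-3p-34703_37 had an adjusted p of 0.062 by limma.

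The unknown depth and the values of 0 limit what can be said of the 172 candidates with a mean under 10, which were not tested.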
